A study of Mus musculus with 6 samples.

Results

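The proneural genes described here are 7 genes of the neurogenic program: *Neurog1*, *Neurog2*, *Neurod1*, *Neurod4*, *Insm1*, *Hes6* and *Btg2*. They were taken by name from the 53801 genes of each deposited count table. All 7 were found, and 6 of them had enough reads for a test; *Neurog1* did not. The libraries came from mouse neural progenitor cells (NPCs) carrying SPEN-AID, a degron-tagged form of Spen that is degraded when auxin is added. The cells had been made from BL/6J x CAST-EiJ embryonic stem cells, were subcloned, and were kept in N2B27 with both EGF and FGF (10 ng/ml each). The groups were untreated cells, 500 µM auxin for 24 h and 500 µM auxin for 48 h, all carrying SPEN-AID. Each group had 1 library of subclone 31 and 1 of subclone 30 (n = 2 per group, 6 libraries). None of the 6 libraries is of auxin-treated cells without the degron, so Spen loss and auxin itself cannot be told apart. Each subclone is a single clone, and the labels do not say that its libraries came from separate cultures, so p-values measure only the spread between these libraries.

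Proneural factors are basic helix-loop-helix (bHLH) proteins that pair with E proteins, bind E-box sequences and commit neural progenitors to neuronal differentiation. The neurogenins act early and switch on Notch ligands and later bHLH factors such as the NeuroD proteins. Notch signalling through RBPJ opposes them in neighbouring cells by way of HES and HEY repressors, and Spen (SHARP) is known as a corepressor that binds RBPJ. Insm1, Hes6 and Btg2 are not proneural bHLH activators themselves but belong to the same transition from dividing progenitor to neuron.

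The libraries held 24603816 to 43008978 counted read pairs in genes, and 3 read pairs, the floor for a detectable level, corresponded to 0.0698 to 0.122 CPM (counted read pairs scaled to a common library size). *Nes* and *Sox2*, markers of neural progenitors, stood at 648 to 1895 and 192 to 472 CPM, while the early neural marker *Sox1* had at most 2 counts in any library. Summed CPM of the 10 listed neuron markers was 908 to 1270 in untreated cells, 794 to 1130 at 24 h and 1060 to 1190 at 48 h, and the neuronal gene *Stmn2* had 2 to 7 counts per library. The pluripotency genes *Pou5f1*, *Zfp42* and *Dppa5a* had 0 counts in every library, but *Nanog* had 31 to 97 and *Esrrb* 32 to 267 counts. *Nanog* was called higher at 48 h than in untreated cells in the fit with subclone as a block (log2 change 1.21 ± 0.23, edgeR adjusted p = 0.0296), and its part in the results below was not tested. In bulk RNA, fewer cells of a type and less RNA per cell cannot be told apart.

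The start-site windows of 4 members are shown because these genes carried the differences described below: *Neurog2* between times, *Neurod1* and *Neurod4* between subclones, and *Btg2* at 48 h in 1 subclone. Each window runs from 250 bases before to 50 bases after an annotated start, read 5′ to 3′ on the gene's strand (RefSeq, GRCm38.p6). Capitals mark matches, on either strand, to the E-box CANNTG, the HES-binding N-box CACNAG, the RBPJ motif TGGGAA and the cyclic AMP response element (CRE) TGACGTCA; the CRE was added after the *Btg2* sequence had been seen. The windows are chr3:127632886-127633185 (plus strand) for *Neurog2*, chr2:79456587-79456886 (minus) for *Neurod1*, chr10:130280089-130280388 (minus) for *Neurod4* and chr1:134079106-134079405 (minus) for *Btg2*.
Neurog2: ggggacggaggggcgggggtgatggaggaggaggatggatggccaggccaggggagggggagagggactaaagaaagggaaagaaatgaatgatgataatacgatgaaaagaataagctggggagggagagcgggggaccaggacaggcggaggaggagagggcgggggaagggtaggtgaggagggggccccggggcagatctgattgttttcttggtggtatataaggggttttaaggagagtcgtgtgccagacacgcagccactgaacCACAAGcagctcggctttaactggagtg
Neurod1: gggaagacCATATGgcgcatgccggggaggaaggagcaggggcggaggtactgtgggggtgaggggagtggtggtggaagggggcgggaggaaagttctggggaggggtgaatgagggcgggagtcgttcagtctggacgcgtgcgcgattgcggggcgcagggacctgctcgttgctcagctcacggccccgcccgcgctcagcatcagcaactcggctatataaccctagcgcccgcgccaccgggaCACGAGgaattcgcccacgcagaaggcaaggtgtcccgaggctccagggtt
Neurod4: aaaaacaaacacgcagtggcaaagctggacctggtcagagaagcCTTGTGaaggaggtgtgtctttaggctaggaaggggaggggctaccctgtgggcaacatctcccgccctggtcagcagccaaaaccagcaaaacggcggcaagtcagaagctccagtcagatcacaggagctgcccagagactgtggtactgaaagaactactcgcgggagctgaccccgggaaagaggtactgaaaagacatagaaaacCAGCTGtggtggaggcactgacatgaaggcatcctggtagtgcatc
Btg2: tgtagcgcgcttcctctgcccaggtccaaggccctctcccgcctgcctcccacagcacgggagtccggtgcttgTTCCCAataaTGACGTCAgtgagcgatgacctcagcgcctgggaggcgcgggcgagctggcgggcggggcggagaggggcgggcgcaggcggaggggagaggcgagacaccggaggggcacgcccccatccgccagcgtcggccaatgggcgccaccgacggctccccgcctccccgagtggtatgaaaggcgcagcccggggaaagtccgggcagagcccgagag

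The *Neurog2* window held 1 N-box, just past the start, and no E-box or RBPJ match. *Neurod1* had 1 E-box at the upstream end and 1 N-box at the start, and *Neurod4* had 1 N-box upstream and 1 E-box after the start. A further *Neurod4* window, chr10:130280205-130280504, overlaps the one shown and held 2 N-boxes but no E-box. *Btg2* had neither an E-box nor an N-box, but an RBPJ match and a CRE a few bases apart. Of the other members with a window, *Neurog1* had 1 E-box, and *Hes6* had 3 E-boxes in the window at chr1:91413989-91414288 and 1 E-box and 2 N-boxes in that at chr1:91413173-91413472. Among all 32851 windows of 27025 genes in the same table, 72.3% held an E-box, 42.5% an N-box, 25.6% the RBPJ motif and 1.8% the CRE. The E-box form CAGATG, which also counts as a CANNTG match and lay in 17.2% of all windows, was in none of the member windows. Matched letters are a description of these windows and say nothing of binding.

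The 2 neurogenins start the program, and both were at or near the limit of detection. *Neurog1* (chr13:56250478-56252163, mm10) had 0 counts in all 6 libraries, which over 204804202 counted read pairs allows a level of up to 0.0146 CPM. *Neurog2* (chr3:127633135-127635631) had 1, 0 and 17 counts in subclone 31 untreated, at 24 h and at 48 h, and 9, 2 and 41 counts in subclone 30. In each subclone the 48 h library held the most *Neurog2*. The 24 h library held the least in subclone 30. In subclone 31, 0 against 1 counts give no order of 24 h and untreated (exact 95% interval of the ratio 0 to 37, counting error only). As CPM this was 0.193 ± 0.238 in untreated cells, 0.0250 ± 0.0354 at 24 h and 0.983 ± 0.484 at 48 h (SD, n = 2). It passed the filter on low counts through both 48 h libraries and the untreated library of subclone 30, so its test was favoured towards a higher value at 48 h.

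*Neurog2* was higher at 48 h than in untreated cells by a ratio of 6.55 when the counts of both subclones were pooled (58 against 10 counts, exact 95% interval 3.32 to 14.4, counting error only). The ratio was 25.6 in subclone 31 (17 against 1 counts, interval 4.01 to 1070) and 3.67 in subclone 30 (interval 1.76 to 8.59). Against 24 h, the pooled ratio was 41.5 (58 against 2 counts, interval 11 to 350). With subclone as a block, edgeR's quasi-likelihood test called both rises, with a log2 change of 2.56 ± 0.61 (SE, adjusted p = 0.043) against untreated and 5.19 ± 0.80 (adjusted p = 0.0164) against 24 h. With treatment alone in the fit, neither passed (edgeR adjusted p = 0.29 and 0.112). Each call also depended on single libraries in the blocked edgeR fit. Both calls were lost without the 24 h library of subclone 31 or of subclone 30. The call against untreated was also lost without the untreated library of subclone 31. Each of these fits leaves 1 library in a group, and calls over all genes fell there too. In a blocked fit of only the 4 libraries compared, the call against untreated was lost as well (edgeR adjusted p = 0.0775), where 0.0195% of all genes were called. DESeq2 with the same block gave *Neurog2* no adjusted p; its unadjusted p was 0.00563 against untreated and 4.72e-05 against 24 h. The pooled 24 h over untreated ratio was 0.158 (2 against 10 counts, interval 0.0168 to 0.741), and edgeR's blocked fit did not call it (log2 change -2.63 ± 1.10, adjusted p = 0.809).

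**Figure D1:**
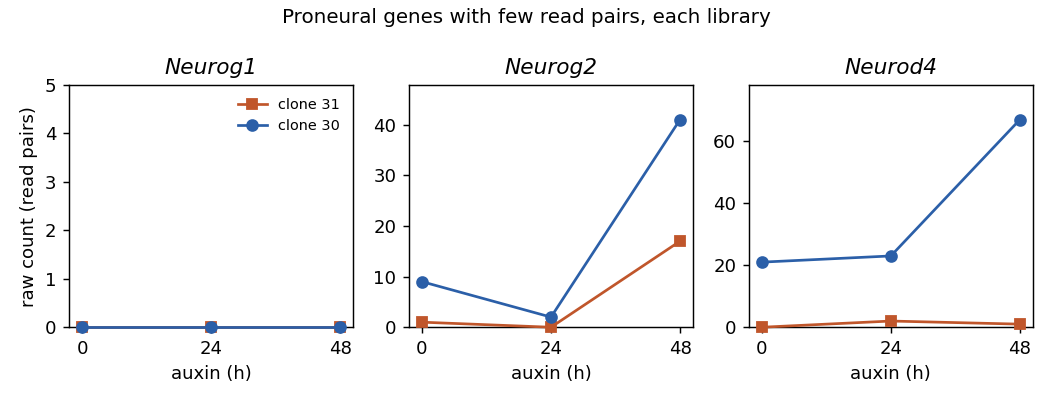
Raw counts of read pairs (y axis) against hours of auxin (x axis) for *Neurog1*, *Neurog2* and *Neurod4*, 1 point per library, with orange squares for subclone 31 and blue circles for subclone 30 (labelled clone 31 and clone 30). *Neurog1* lies at 0 throughout, *Neurog2* reaches 17 and 41 at 48 h, and *Neurod4* stays at 0 to 2 in subclone 31 against 21 to 67 in subclone 30.

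*Neurod1* and *Neurod4*, bHLH factors that act downstream of the neurogenins in differentiating neurons, differed between the subclones at every time. *Neurod1* (chr2:79452521-79456751) had 84, 116 and 41 counts in subclone 31 untreated, at 24 h and at 48 h, or 2.10, 2.75 and 1.55 CPM. In subclone 30 it had 330, 1113 and 399 counts, or 13.2, 27.8 and 12.9 CPM. All 3 libraries of subclone 31 lay below all 3 of subclone 30. Subclone 31 was lower by 3.03 ± 0.17 on the log2 scale (edgeR, log2 change -3.03, adjusted p = 0.000989), and subclone 30 exceeded it by ratios of 6.31 untreated (95% interval 4.95 to 8.11), 10.1 at 24 h (8.35 to 12.4) and 8.35 at 48 h (6.05 to 11.8). Of the 2729 exonic bases counted for *Neurod1*, 201 overlap *Cerkl* on the same strand, a gene with 5 to 45 counts per library.

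In time, *Neurod1* was highest at 24 h in both subclones. The 24 h over untreated ratio was 1.31 in subclone 31 (interval 0.981 to 1.76) and 2.10 in subclone 30 (1.86 to 2.38). Without the block, edgeR gave it an adjusted p of 1; with the block the log2 change was 0.78 ± 0.20 (edgeR adjusted p = 0.663; unadjusted p = 0.00794), and it was called only when 1 of the 48 h libraries was left out (adjusted p = 0.0491 and 0.0492). *Neurod1* averaged 7.67 ± 7.88 CPM in untreated cells, 15.3 ± 17.7 CPM at 24 h and 7.22 ± 8.03 CPM at 48 h (SD, n = 2). It was lower at 48 h than at 24 h in both subclones, by 0.81 in subclone 31 and 1.11 in subclone 30 on the log2 CPM scale (48 h minus 24 h, -0.81 and -1.11). The blocked edgeR fit called this fall (log2 change -0.99 ± 0.20, adjusted p = 0.023), as did DESeq2 with the block (adjusted p = 0.00132). The call was lost without the block (edgeR adjusted p = 0.685), where 0% of all genes were called. In the blocked fit it was lost without the 24 h library of subclone 31 or of subclone 30. Either fit leaves 1 library at 24 h, and nearly all calls over all genes were lost there too. Against untreated, the 48 h level gave a log2 change of -0.21 ± 0.21 (blocked edgeR adjusted p = 0.506).

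*Neurod4* (chr10:130268152-130280240), also known as Math3, was read almost only in subclone 30. It had 0, 2 and 1 counts in subclone 31 untreated, at 24 h and at 48 h, and 21, 23 and 67 counts in subclone 30. Summed over times, subclone 31 had 3 counts and subclone 30 had 111, a ratio of 0.0238 (95% interval 0.00484 to 0.0715). The edgeR log2 change for subclone 31 against 30 was -5.07 ± 0.58 (adjusted p = 0.0054), a size that depends on the prior count added to near-empty libraries. The gene passed the filter through subclone 30 alone, which favours a lower value in subclone 31. Within subclone 30, *Neurod4* at 48 h exceeded 24 h by 3.77 (interval 2.32 to 6.34) and untreated by 2.57 (1.55 to 4.42), with 1 library each, so these intervals hold counting error only. Over both subclones the blocked edgeR fit did not call *Neurod4* at 48 h against untreated (log2 change 1.41 ± 0.53, adjusted p = 0.113) or against 24 h (1.72 ± 0.52, adjusted p = 0.0594).

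**Figure D2:**
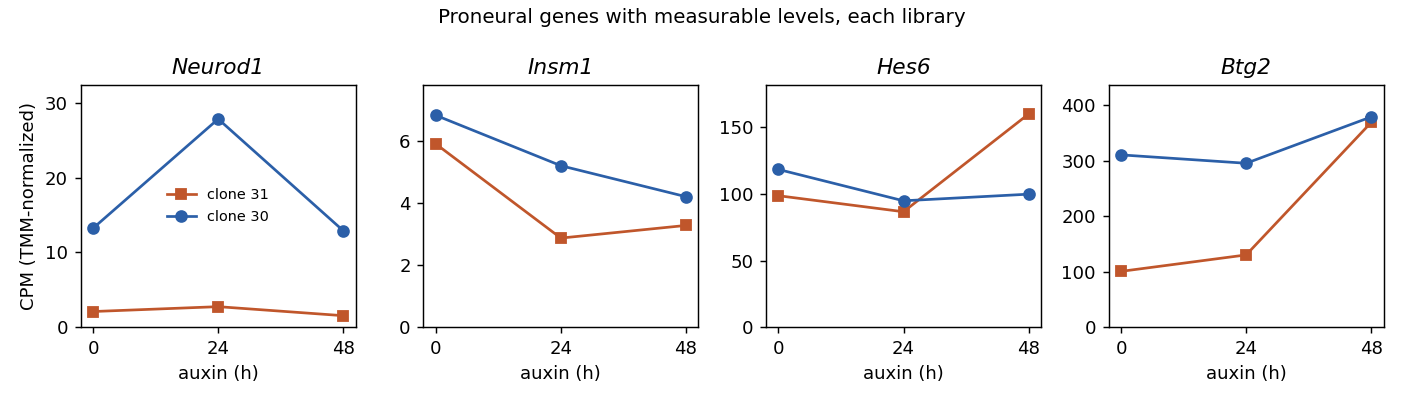
TMM-normalized CPM (y axes, each from 0) against hours of auxin (x axis) for *Neurod1*, *Insm1*, *Hes6* and *Btg2*, 1 point per library, with orange squares for subclone 31 and blue circles for subclone 30. *Neurod1* peaks at 24 h at 2.75 CPM in subclone 31 and 27.8 CPM in subclone 30, and *Btg2* reaches 369 and 379 CPM at 48 h.

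*Insm1* (chr2:146221921-146225020) encodes a zinc-finger repressor that promotes the formation of basal neurogenic progenitors. It had 5.90, 2.87 and 3.28 CPM in subclone 31 untreated, at 24 h and at 48 h, and 6.82, 5.20 and 4.20 CPM in subclone 30, from 87 to 236 counts. Both untreated libraries lay above all 4 auxin libraries. The level was 6.36 ± 0.65 CPM in untreated cells, 4.04 ± 1.65 CPM at 24 h and 3.74 ± 0.65 CPM at 48 h (SD, n = 2). The 48 h over untreated ratio was 0.555 in subclone 31 (95% interval 0.429 to 0.713) and 0.616 in subclone 30 (0.486 to 0.779). In edgeR the log2 change at 48 h was -0.78 ± 0.22 with the block (adjusted p = 0.0599) and -0.76 ± 0.36 without it (adjusted p = 0.295), neither past 0.05. DESeq2 with the block called it (log2 change -0.79 ± 0.31, adjusted p = 0.0432). With 1 library left out, the blocked edgeR log2 change ran from -0.986 to -0.578. At 24 h the ratio was 0.486 in subclone 31 (interval 0.387 to 0.608) and 0.762 in subclone 30 (0.619 to 0.939), with a blocked edgeR log2 change of -0.71 ± 0.21 (adjusted p = 0.752).

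*Hes6* (chr1:91411483-91414038) encodes a bHLH protein that counters the repressor Hes1 and is itself switched on by proneural factors. It had 98.8, 86.7 and 160 CPM in subclone 31 untreated, at 24 h and at 48 h, and 119, 94.95 and 99.9 CPM in subclone 30. The subclones moved in opposite directions at 48 h: the ratio to untreated was 1.62 in subclone 31 (95% interval 1.55 to 1.69) and 0.843 in subclone 30 (0.802 to 0.887), a difference not tested because each rests on 1 library per time. The 48 h mean of 130 ± 42.6 CPM, against 108.6 ± 13.9 CPM in untreated cells (SD, n = 2), averages over that split. The blocked edgeR log2 change was 0.25 ± 0.23 (adjusted p = 0.475). Without the 48 h library of subclone 30, which leaves 1 library at 48 h and the contrast to subclone 31, it was 0.68. At 24 h *Hes6* was below untreated in both subclones by at most 0.32 (log2 CPM difference -0.19 in subclone 31 and -0.32 in subclone 30; blocked edgeR adjusted p = 0.903).

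*Btg2* (chr1:134075170-134079120), also called Tis21, encodes an antiproliferative protein that marks progenitors about to make neurons; it is also a p53 target and an immediate early gene. It had 101, 130 and 369 CPM in subclone 31 untreated, at 24 h and at 48 h, and 310, 295 and 379 CPM in subclone 30. At 48 h both subclones stood at nearly the same level (373.7 ± 7.0 CPM, SD, n = 2), above both untreated libraries (205.5 ± 148 CPM). The 48 h over untreated ratio was 3.66 in subclone 31 (95% interval 3.53 to 3.80) and 1.22 in subclone 30 (1.19 to 1.26). Subclone 31 over subclone 30 was 0.324 untreated, 0.441 at 24 h and 0.974 at 48 h (interval 0.948 to 1). The blocked edgeR log2 change at 48 h was 1.11 ± 0.36 (adjusted p = 0.0835), and 0.86 ± 0.61 (adjusted p = 0.471) without the block. In the blocked edgeR fit the log2 change was 1.77 without the 48 h library of subclone 30 and 1.61 without the untreated library of subclone 30. Both fits leave 1 library in a group and rest the contrast more on subclone 31. At 24 h the ratio was 1.29 in subclone 31 (interval 1.24 to 1.35) and 0.951 in subclone 30 (0.924 to 0.979).

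**Figure D3:**
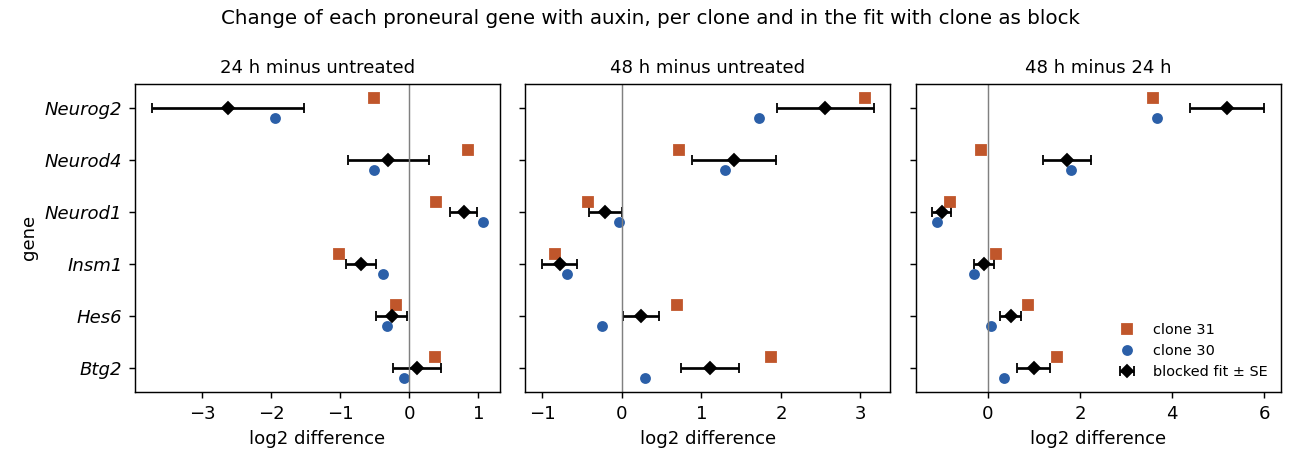
Log2 differences (x axes) of the 6 tested proneural genes (y axis) for 24 h minus untreated, 48 h minus untreated and 48 h minus 24 h. Orange squares are subclone 31 and blue circles subclone 30 (log2 CPM, 1 library a time), and black diamonds with bars are the edgeR fit with subclone as a block ± SE. *Neurog2* lies right of 0 in both subclones at 48 h, *Insm1* left of 0 at 24 h and 48 h, and *Hes6* on both sides of 0 at 48 h.

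Counting over the members, auxin at 48 h against untreated gave 0 calls among the 6 tested in edgeR with treatment alone, where 0% of all 16007 tested genes were called. None of the 6 had an unadjusted edgeR p under 0.05 there, where 3311 of all 16007 genes did. DESeq2 without the block also called 0 of them, where it called 10.4% of all genes. Limma-voom without the block called 0 of them and 0% of all genes. With the block, 1 of the 6 was called higher and 0 lower, where 17.4% of all genes were called (8.35% higher and 9.08% lower). In that fit 4 of the 6 had an unadjusted edgeR p under 0.05, where 5985 of all 16007 genes did. At 24 h against untreated, 0 of the 6 and 0% of all genes were called by edgeR in either fit. An unadjusted edgeR p under 0.05 was reached by 0 members without the block and 2 with it, beside 240 and 988 of all 16007 genes. DESeq2 called 0 members, where it called 0.0375% of all genes without the block and 0.256% with it. Limma-voom called 0 members and 0% of all genes in either fit. Between 48 h and 24 h, edgeR with treatment alone again called 0 of 6 and 0% of all genes. There 1 member had an unadjusted edgeR p under 0.05, where 3997 of all 16007 genes did. DESeq2 without the block called 0 of 6, where it called 15.8% of all genes, and limma-voom called 0 of 6 and 0%. With the block, edgeR called 1 higher and 1 lower, where 26.1% of all genes were called (12.3% higher and 13.9% lower). The share of members called lay near the background in the contrast with untreated, so the counts say little of the group as a whole. The median log2 change over the 6 at 48 h against untreated was 0.68 in the blocked fit, beside 0.02 over all genes tested. Glial markers moved in the same contrast: 5 of 7 tested astrocyte markers and 3 of 5 tested oligodendrocyte markers were called higher at 48 h and 0 lower. Astrocyte markers summed to 1200 to 1290 CPM at 48 h, against 574 to 868 CPM untreated, and oligodendrocyte markers to 337 and 620 CPM, against 159 and 165 CPM, while *Mog* had at most 2 counts and *Sox10* at most 5. Their part in the members' changes was not tested.

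Subclone 31 was lower than subclone 30 in 2 of 6 tested members (*Neurod1* and *Neurod4*) and higher in 0, where 16.1% of all genes were called (7.54% higher and 8.58% lower). Of these 2, *Neurod4* passed the filter through subclone 30 alone, which favours a lower value in subclone 31. Of the 6, 5 had a lower log2 CPM in subclone 31 at all 3 times, and *Hes6* did not, but the share of all genes doing so was not counted. For *Neurog2* at 24 h this rests on 0 against 2 counts, and *Neurod4* had at most 2 counts in subclone 31. For *Insm1* the 95% interval of the ratio (counting error only) held 1 untreated (0.707 to 1.06) and at 48 h (0.587 to 1.03). The members not called had log2 changes of -1.61 ± 0.56 for *Neurog2* (edgeR adjusted p = 0.112) and -0.95 ± 0.29 for *Btg2* (edgeR adjusted p = 0.0845). *Insm1* had -0.47 ± 0.18 (edgeR adjusted p = 0.133) and *Hes6* 0.09 ± 0.19 (edgeR adjusted p = 0.774). The median over the 6 was -1.28, against 0.01 over all genes tested. With 1 library left out, the log2 change ran from -1.42 to -0.601 for *Btg2* and from -3.72 to -1.17 for *Neurog2*. Neuron marker levels moved with this difference: their summed CPM, most of it *Map2*, was 794 to 1060 in subclone 31 and 1130 to 1270 in subclone 30. *Stmn2* had 2 counts in each library of subclone 31 and 5 to 7 in those of subclone 30, and 3 of 9 tested neuron markers were called lower in subclone 31 (*Tubb3*, *Nefm* and *Gap43*) and 1 higher (*Syt1*). Mesenchymal markers summed to 68.9 to 102 CPM in subclone 31 and 22.3 to 24.4 CPM in subclone 30, with 3 of 5 tested called higher (*Col3a1*, *Prrx1* and *Pdgfrb*). Of 7 tested astrocyte markers, 4 were called lower in subclone 31 (*Gfap*, *Aldh1l1*, *Slc1a2* and *Gja1*), with sums of 574 to 1290 CPM in subclone 31 and 765 to 1200 CPM in subclone 30. Oligodendrocyte markers summed to 165 to 620 CPM in subclone 31 and 104 to 337 CPM in subclone 30, with calls in both directions. The part of these markers in the difference was not tested.

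Per kilobase of exon, the members spanned more than 2 orders of magnitude. *Btg2* (36.7 to 138 CPM per kb over the 6 libraries) and *Hes6* (48.0 to 88.6) were the most abundant, and their ranges overlapped: *Hes6* stood above *Btg2* in subclone 31 untreated and at 24 h, and *Btg2* above *Hes6* in the other 4 libraries. *Neurod1* (0.566 to 10.2) and *Insm1* (0.926 to 2.20) came next and also overlapped, followed by *Neurod4* (0 to 0.648) and *Neurog2* (0 to 0.595), while *Neurog1* had no reads. For scale, the bHLH factor *Olig2*, which marks the oligodendrocyte lineage, stood at 189 to 300 CPM per kb. Across the 6 libraries, which share subclones and treatments, *Neurod1* and *Neurod4* had a Pearson r of 0.868 and *Neurog2* and *Btg2* an r of 0.824 in log2 CPM.

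Among 13 other neural bHLH genes, 4 had enough reads to be tested. *Nhlh1*, a bHLH gene of newborn neurons, had 0, 0 and 1 counts in subclone 31 untreated, at 24 h and at 48 h, and 2, 23 and 33 in subclone 30. It passed the filter only through the 24 h and 48 h libraries of subclone 30, which favours a higher value with auxin and a lower one in subclone 31. The blocked edgeR fit called it higher at 48 h than in untreated cells (log2 change 3.66 ± 0.72, adjusted p = 0.0306), and edgeR called it lower in subclone 31 than in subclone 30 (-5.33 ± 0.65, adjusted p = 0.00645). *Olig1* and *Olig2* were not called at 48 h against untreated. The E proteins *Tcf3*, *Tcf4* and *Tcf12*, the dimer partners of proneural factors, were not called (log2 changes -0.27, 0.25 and 0.17, blocked edgeR adjusted p = 0.0967, 0.136 and 0.254). Of 4 Id genes, whose products sequester E proteins, *Id4* rose (2.77 ± 0.45, edgeR adjusted p = 0.025), with 9.15 and 50.4 CPM at 48 h in subclones 31 and 30, against 0.550 and 12.4 CPM untreated.

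The HES and HEY repressors, the Notch-driven antagonists of the proneural genes, had 4 of 6 tested members called higher and 0 lower at 48 h against untreated in the blocked edgeR fit, with a median log2 change of 2.49. Of these 6, *Hes3* (11 and 65 counts at 48 h in subclones 31 and 30, against 5 and 2 untreated) and *Heyl* passed the filter only through their 48 h libraries, which favours a higher value there. The 4 called were *Hes5* (3.57 ± 0.81, edgeR adjusted p = 0.0387), *Hes3* (3.21 ± 0.65, adjusted p = 0.0323), *Hey2* (1.77 ± 0.38, adjusted p = 0.0345) and *Hey1* (1.53 ± 0.25, adjusted p = 0.0257). *Hes5* had 44.2 and 32.6 CPM at 48 h in subclones 31 and 30, against 0.775 and 7.99 CPM untreated, and *Hey1* had 104 and 79.2 CPM, against 24.5 and 40.0 CPM. Genes known as targets or effectors of proneural factors had 5 of 18 tested called higher and 1 lower, with a median of 0.58, where 8.35% of all genes were called higher and 9.08% lower. The Notch ligand *Dll1* had 217 and 202 CPM at 48 h in subclones 31 and 30, against 41.6 and 105 CPM untreated (log2 change 1.66 ± 0.32, edgeR adjusted p = 0.0302). *Sox4* (1.47 ± 0.28, edgeR adjusted p = 0.0293), the Notch modifier *Mfng* (1.43 ± 0.27, adjusted p = 0.0292) and *Myt1* (1.27 ± 0.21, adjusted p = 0.0258) rose as well, as did *Elavl4*, by a smaller log2 change of 0.51 ± 0.12 (adjusted p = 0.0405), while *Ebf1* fell (-1.27 ± 0.26, adjusted p = 0.0326). Of 9 tested neuron markers, 0 were called higher and 1, the synaptic vesicle gene *Syt1*, lower. With treatment alone in the edgeR fit, 0 genes of these lists were called at 48 h, as for all genes tested. DESeq2 with treatment alone called 10.4% of all genes. A blocked edgeR fit of only the 4 libraries compared called 3 of 15357 genes in all. Against 24 h, the blocked fit of all libraries called 4 of 6 HES and HEY genes higher and 0 lower, and 8 of 18 proneural targets higher and 2 lower, where 12.3% of all genes were called higher and 13.9% lower.

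**Figure D4:**
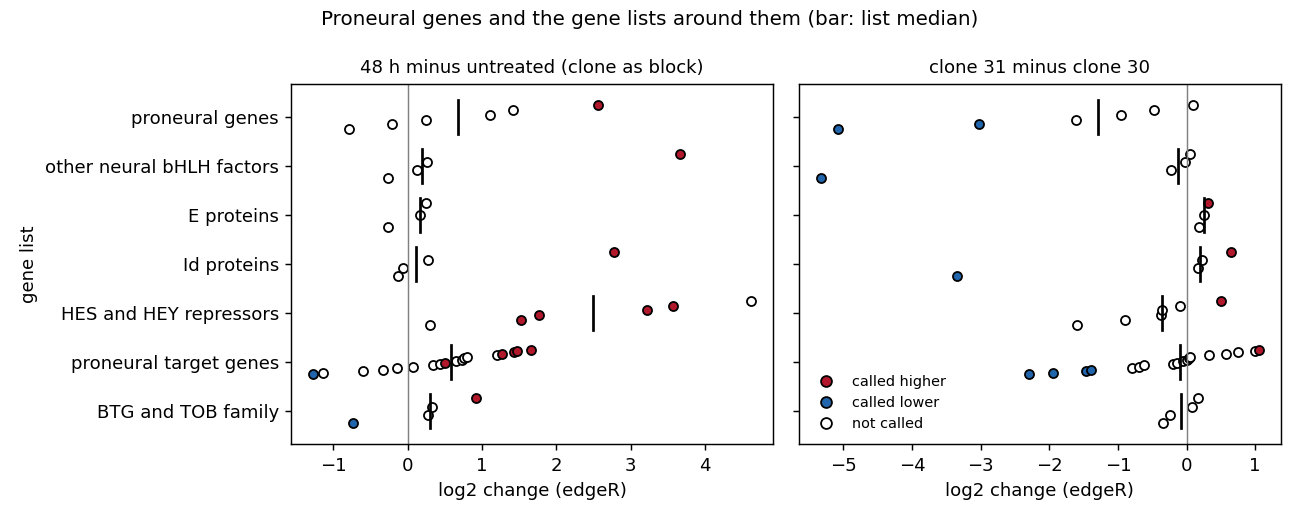
Log2 changes (x axes) of the tested genes in 7 gene lists (y axis), for 48 h minus untreated with subclone as a block and for subclone 31 minus subclone 30 (edgeR). Each point is a gene, filled red where called higher and blue where called lower at an adjusted p under 0.05, and the bar is the list's median. The HES and HEY list sits furthest to the right at 48 h (median 2.49, with 2 of its genes tested only through their 48 h libraries). The proneural genes lie furthest to the left between the subclones (median -1.28, with *Neurod4* tested only through its subclone 30 libraries).

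In the subclone comparison, 1 of the 18 tested proneural targets was called higher in subclone 31 and 4 lower, with a median of -0.10. Of all genes, 7.54% were called higher and 8.58% lower. The higher one was *Ebf3* (1.05 ± 0.16, edgeR adjusted p = 0.013), a factor of migrating neurons. The lower ones were *Eomes* (-2.29 ± 0.43, edgeR adjusted p = 0.0203), a mark of intermediate progenitors, *Elavl3* (-1.95 ± 0.39, adjusted p = 0.0249), *Gadd45g* (-1.47 ± 0.33, adjusted p = 0.0365) and *Mfng* (-1.39 ± 0.22, adjusted p = 0.0129). *Eomes* had 2 to 3 counts per library in subclone 31 and 6 to 17 in subclone 30, and passed the filter only through the auxin libraries of subclone 30, which favours a lower value in subclone 31. *Elavl3* had 5 to 8 counts in subclone 31 and 13 to 36 in subclone 30. It passed through every library of subclone 30 but only the 48 h library of subclone 31. *Id4* was lower in subclone 31 (-3.35 ± 0.38, edgeR adjusted p = 0.00552), and *Id3* (0.65 ± 0.08, adjusted p = 0.00682), *Tcf3* (0.32 ± 0.08, adjusted p = 0.0422) and *Hes1*, the repressor that Hes6 counters (0.50 ± 0.13, adjusted p = 0.0494), were higher.

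*Btg2* belongs to a gene family and to stress-responsive programs that were also counted. In the BTG and TOB family of antiproliferative genes, *Btg1* rose at 48 h against untreated (log2 change 0.93 ± 0.10, blocked edgeR adjusted p = 0.0238), with 143 and 151 CPM in subclones 31 and 30, against 69.5 and 86.5 CPM untreated, and *Btg3* fell (-0.73 ± 0.17, adjusted p = 0.0385). Of 14 tested p53 target genes, 1 was called higher (*Sesn1*, log2 change 0.76) and 2 lower, with a median of -0.18; the lower ones were *Cdkn1a*, the p53-induced CDK inhibitor (-0.49), and *Aen* (-0.59). That is 21.4% of the list, near the 17.4% of all genes called. Of 11 tested immediate early genes, 1 was called higher (*Fosb*, 2.28) and 1 lower (*Egr1*, -0.90), with a median of -0.23. Between the subclones, 11 of 14 p53 targets were called lower in subclone 31, where 8.58% of all genes were called lower. In subclone 31 the summed p53 target level was 2380 to 2780 CPM, against 3290 to 4550 CPM in subclone 30. Their part in the *Btg2* difference between subclones was not tested.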

How the data were processed

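The deposited files hold whole-number counts of read pairs per gene, 1 file per library. Per the file headers, the authors made the counts with featureCounts 1.6.1 on merged, duplicate-removed STAR alignments, over exons of Ensembl release 92 (mm10), read as pairs and as reverse stranded. DESeq2 and R 3.4.2 are listed in the submitters' processing notes. The labels name the TruSeq RNA kit v2, which usually does not keep strand and so would conflict with stranded counting, but the counts behave as stranded: among 52 genes lying at least 90% within exons of an opposite-strand gene of 100 CPM or more, read density was a median 0.143% of that gene's. Gene names came from Ensembl IDs through a reference table, which named 53620 of 53801 IDs, and the other 181 were kept by ID.

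Counts were tested with edgeR 4.0.16 (quasi-likelihood, TMM scaling, 2-sided, Benjamini-Hochberg over the 16007 genes kept by filterByExpr, called at an adjusted p under 0.05) in R 4.3.3. The first fit had treatment alone. Subclones pair the libraries: deviations from group means correlated within a subclone at 0.803 between untreated and 24 h, 0.58 between untreated and 48 h and 0.707 between 24 h and 48 h, so values with subclone as a block are given beside it. The subclone comparison had treatment and subclone as terms. DESeq2 1.42.0 and limma-voom (limma 3.58.1) were alternatives. Log2 CPM used a prior count of 2. Ratios of counts have exact binomial 95% intervals on TMM-scaled library sizes, and intervals and floors cover counting error only. The levels per kb divide CPM by exon length.

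The test steps were checked on simulated counts. The members and gene lists were chosen with earlier results of these data known. Named from each list were up to 4 genes of smallest p at 48 h in the blocked fit (some are not reported here), and for each tested member the 3 genes with the highest r. Further genes named for the subclone comparison, and marker genes at or near 0, were chosen after their values were seen. Promoter windows came from RefSeq (GRCm38.p6).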

Additional observations from a re-analysis of the deposited data

Results flagged for a closer look

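For 5 results the subclones moved in opposite directions, so that the sign of the change differed between subclone 31 and subclone 30. With 1 library per subclone and time, the difference between the subclones was not tested in any of them. All values are log2 CPM differences, and the gap is subclone 31 minus subclone 30. For *Hes6* at 48 h against untreated the change was 0.70 in subclone 31 and -0.25 in subclone 30, a gap of 0.94. For *Btg2* at 24 h against untreated it was 0.37 in subclone 31 and -0.07 in subclone 30, a gap of 0.44. For *Insm1* at 48 h against 24 h it was 0.19 in subclone 31 and -0.30 in subclone 30, a gap of 0.49. For *Neurod4*, with at most 2 counts in any library of subclone 31, the change at 24 h against untreated was 0.85 in subclone 31 and -0.51 in subclone 30, a gap of 1.36. At 48 h against 24 h the *Neurod4* change was -0.14 in subclone 31 and 1.81 in subclone 30, a gap of -1.95.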

How the results depend on the processing

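*Neurod1* was called lower in subclone 31 under all 14 alternatives (-3.21 to -2.84 on the log2 scale) and *Neurod4* under all 13 that tested it (-6.20 to -4.61). *Neurod4* passed the filter through subclone 30 alone, which favours a lower value in subclone 31. No auxin call of a member was made without the replicate block. The numbers of members called below are for fits with no single library left out, unless stated. Members called at 48 h against untreated numbered 0 with treatment alone, and 1 (*Neurog2*) with the replicate block under TMM, DESeq2 size factors, upper-quartile or total-count scaling or limma-voom. They numbered 1 (*Insm1*) with DESeq2 and the block, 2 (*Insm1* and *Neurog2*) with the block and no filter, and 0 with the block and a filter at 1 CPM, which removes *Neurog2*, or with only the 4 libraries compared. With 1 library left out under the block, log2 changes ran from 1.84 to 4.53 for *Neurog2* and -0.986 to -0.578 for *Insm1*. They ran from 0.371 to 1.77 for *Btg2* and -0.235 to 0.677 for *Hes6*. For 48 h against 24 h the number was 0 with treatment alone, 2 (*Neurod1* and *Neurog2*) with the block under the 4 scalings and limma-voom, 1 (*Neurod1*) with the 1 CPM filter or DESeq2, and 3 (*Neurod4* too) with no filter or only 4 libraries. In this contrast, with 1 library left out under the block, log2 changes ran from 4.64 to 7.33 for *Neurog2* and -1.19 to -0.707 for *Neurod1*. They ran from -0.772 to 1.93 for *Neurod4*, 0.0272 to 0.938 for *Hes6* and 0.233 to 1.63 for *Btg2*. Without the 24 h library of subclone 31 or of subclone 30, which leaves 1 library at 24 h, no member call was left in this contrast. Nearly all calls over all genes were lost there too. Leaving out the 48 h library of subclone 30 instead raised the calls of members and of all genes in both 48 h contrasts, on 1 library at 48 h. At 24 h against untreated the number of members called was 0 in each setting with all libraries. There the *Neurod1* log2 change ran from 0.464 to 1.02 under the block with 1 library left out. Between the subclones, with no single library left out, the number was 2, or 1 with the 1 CPM filter, which removes *Neurod4*. Without the 48 h library of subclone 30 or of subclone 31, *Btg2* and *Neurog2* were called lower as well. In those fits 30% and 29.7% of all genes were called.

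Some uncalled values changed sign. At 24 h against untreated, *Neurod4* (-0.34 with treatment alone) was 0.143 with DESeq2 and the block, 1.15 with limma-voom and 0.0612 with limma-voom and the block. *Btg2* at 24 h (0.05) was -0.00274 with upper-quartile scaling, and *Insm1* at 48 h against 24 h (-0.11) was 0.003 with the block and that scaling. With 1 library left out and treatment alone, where the lone library of a group is assumed to vary like the others, values ran at 24 h from -1.47 to 2.86 for *Neurod1*, -2.94 to 6.49 for *Neurod4* and -0.653 to 1.08 for *Btg2*. At 48 h against untreated they ran from -2.30 to 1.77 for *Neurod1*, -3.25 to 8.32 for *Neurod4* and -0.136 to 0.568 for *Hes6*, and at 48 h against 24 h from -3.29 to 1.38, -2.91 to 4.44 and, for *Insm1*, -0.477 to 0.375. *Hes6* between the subclones ran from -0.210 to 0.282. Under the block with 1 library left out, the changed signs were, at 24 h, 2.88 and 2.20 for *Neurod4*, 0.0348 for *Hes6*, and -0.329 and -0.0772 for *Btg2*. At 48 h against untreated they were 0.0101 for *Neurod1*, and -0.0337 and -0.235 for *Hes6*. For 48 h against 24 h they were -0.772 for *Neurod4*, and 0.225 and 0.0216 for *Insm1*. The causes were not tested.

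Over all genes, 48 h against untreated gave 0 calls with treatment alone, 2790 with the block, 1669 with DESeq2, 216 with no filter and 3 with the block and only the 4 libraries compared. For 48 h against 24 h the numbers were 0, 4185, 2530, 833 and 4156, and at 24 h 0, 0, 6, 0 and 140, with 41 for DESeq2 and the block and 19 for the block and no filter. At an unadjusted p under 0.05 edgeR with treatment alone had 240 genes at 24 h, 3311 at 48 h and 3997 between those times. In the contrast of 48 h with 24 h, upper-quartile scaling moved the blocked split to 2549 higher and 1726 lower (1961 and 2224 with TMM) and the median of all genes to 0.11. Total-count scaling moved the subclone split to 942 higher and 1695 lower (1207 and 1374), and leaving out the treatment term left 566 calls. With 2 libraries a group and 0 to 67 counts of *Neurog2* and *Neurod4*, depth limits both genes.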

Other observations

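Genes whose log2 CPM followed that of a member most closely over the 6 libraries are given as a description, with no test, since the libraries share subclones and treatments. Among genes with a mean of at least 5 CPM, *Neurog2* was followed most closely by *Tnk2* (r = 0.998), *Neurod1* by *Src* (r = 0.996), *Neurod4* by *Adgrb1* (r = 0.997), *Insm1* by *Gas1* (r = 0.995), *Hes6* by *Sptssa* (r = 0.993) and *Btg2* by *Plekhb2* (r = 0.999). The number of genes with an r above 0.95 was 186 for *Neurog2*, 135 for *Neurod1*, 83 for *Neurod4*, 7 for *Insm1*, 57 for *Hes6* and 192 for *Btg2*. *Ptprv*, also among the 3 nearest to *Neurod1*, had 11.2, 15.4 and 10.5 CPM in subclone 31 untreated, at 24 h and at 48 h, and 46.5, 109 and 60.1 CPM in subclone 30. *Gas1* had 141, 93.4 and 96.6 CPM in subclone 31 at those times, and 162, 134 and 117 CPM in subclone 30.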
